A study of Mus musculus with 15 samples.

Results

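The genes of the proteasome, the protease complex that degrades ubiquitin-tagged proteins, were followed in mouse liver under 5 combinations of diet and age. Genes were taken by symbol, as those whose symbol starts with Psma, Psmb, Psmc, Psmd, Psme, Psmf or Psmg followed by a number, without pseudogenes, and this gave 50 genes of 19938 measured under a unique symbol. They comprised 5 immunoproteasome genes (Psmb8, Psmb9, Psmb10, Psme1 and Psme2), 41 constitutive subunits, regulators and assembly chaperones, and 2 tissue-restricted core subunits, Psma8 of the testis and Psmb11 of the thymus. The remaining 2, Psmc3ip and Psme3ip1, match by symbol and encode proteins that are no proteasome subunits, so that the label holds for 48 of the 50 genes.

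The 20S core is a barrel of outer rings of alpha subunits and inner rings of beta subunits, and only some of the beta subunits cleave peptides. The 19S cap recognizes ubiquitin chains with its non-ATPase subunits and unfolds the substrate with its ring of ATPases, while dedicated chaperones assemble core and cap. Interferon gamma induces the immunoproteasome, in which Psmb9, Psmb10 and Psmb8 take the places of the catalytic subunits Psmb6, Psmb7 and Psmb5, and in which the activator built of Psme1 and Psme2 opens the barrel, so that peptides suited to presentation on MHC class I are released. Macrophages, lymphocytes and other immune cells carry much of the immunoproteasome of a tissue, and hepatocytes take it up in inflamed liver.

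The livers were of male C57BL/6J mice, and their RNA was measured on 15 gene expression arrays, 3 in each of 5 groups. All mice had been weaned at week 8. The basal diet group was killed at 38w after 30 weeks of diet. The Ath+HF groups received an atherogenic and high-fat diet, a model of nonalcoholic steatohepatitis, for 30 weeks (38w) or 60 weeks (68w), and the Ath+HF+BCAA groups received the same diet with 3% branched-chain amino acids (leucine, isoleucine and valine) over the same periods. Values are log2 signals normalized by the authors, and a difference of 1 on this scale is a doubling of signal. No source used here states that every array is another mouse, so p-values measure the spread between arrays, which may be technical. Basal diet arrays exist here for 38w alone, and in any comparison of 68w with 38w arrays the age and the time on diet cannot be told apart. The labels name no processing batch, and a batch that followed age could not be separated from them. In whole tissue, fewer cells of a type and less RNA per cell cannot be told apart either.

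The promoters of 6 of these genes are printed, 3 of inducible and 3 of constitutive subunits, and whether the letters bear on the expression of these genes was not tested. Windows of 250 bases before to 50 bases after the start site were given by RefSeq (build GRCm38.p6) for 42 of the 50 genes, among them all 5 immunoproteasome genes. They were searched on both strands for GAAANNGAA, the core of the interferon-stimulated response element, TTCNNNGAA, the core of the gamma-activated site, TGACNNNGC, the core of the antioxidant response element, and CCAAT, the box bound by NF-Y. Printed are the 170 bases before and 30 bases after the start site, 5′ to 3′ on the strand of the gene, with matches in capitals. Psmb8 lies at chr17:34198025-34198224 on the plus strand, Psmb9 at chr17:34187301-34187500 on the minus strand and Psme1 at chr14:55578324-55578523 on the plus strand, and these 3 are the immunoproteasome genes whose window held a match.
Psmb8: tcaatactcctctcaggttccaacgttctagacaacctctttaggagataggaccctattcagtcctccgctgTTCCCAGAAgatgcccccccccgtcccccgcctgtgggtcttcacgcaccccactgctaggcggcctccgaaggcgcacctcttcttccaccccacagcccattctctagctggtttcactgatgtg
Psmb9: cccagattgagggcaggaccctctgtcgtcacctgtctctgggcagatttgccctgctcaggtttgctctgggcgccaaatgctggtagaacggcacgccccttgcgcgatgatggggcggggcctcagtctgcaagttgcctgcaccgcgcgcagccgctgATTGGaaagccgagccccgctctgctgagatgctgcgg
Psme1: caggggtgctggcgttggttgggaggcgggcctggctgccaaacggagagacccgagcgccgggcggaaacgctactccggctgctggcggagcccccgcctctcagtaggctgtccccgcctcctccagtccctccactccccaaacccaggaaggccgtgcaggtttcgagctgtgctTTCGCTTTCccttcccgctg
Psmb8 has the gamma-activated site core, Psmb9 a CCAAT box on the opposite strand, and Psme1 the core of the interferon-stimulated response element just after its start site. On chromosome 17 of the RefSeq annotation Psmb9, Tap1, Psmb8 and Tap2 follow each other, and the windows of Psmb9 and of the peptide transporter gene Tap1 share 275 bases. Of the constitutive genes, Psmb5 (chr14:54617966-54618165 on the minus strand) and Psmb6 (chr11:70525187-70525386 on the plus strand) are shown because they are the counterparts of Psmb8 and Psmb9, and Psma2 (chr13:14613072-14613271 on the plus strand) because it was among the 4 members with the largest fall in the arrays carrying the label Ath+HF+BCAA 68w.
Psmb5: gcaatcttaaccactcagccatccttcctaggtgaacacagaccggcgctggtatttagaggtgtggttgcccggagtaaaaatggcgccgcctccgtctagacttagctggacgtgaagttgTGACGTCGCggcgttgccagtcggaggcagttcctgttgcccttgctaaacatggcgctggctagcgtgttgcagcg
Psmb6: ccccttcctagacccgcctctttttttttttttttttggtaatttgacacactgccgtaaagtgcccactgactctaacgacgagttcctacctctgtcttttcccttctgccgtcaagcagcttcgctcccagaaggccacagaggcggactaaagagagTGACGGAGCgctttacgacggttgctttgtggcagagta
Psma2: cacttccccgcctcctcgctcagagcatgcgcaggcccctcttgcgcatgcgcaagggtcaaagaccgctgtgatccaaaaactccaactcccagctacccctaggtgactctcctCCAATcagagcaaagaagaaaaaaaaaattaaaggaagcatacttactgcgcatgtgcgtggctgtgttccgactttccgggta
Psmb5 and Psmb6 hold the core of the antioxidant response element, the site through which Nfe2l1 and Nfe2l2 can act, and Psma2 holds a CCAAT box. The antioxidant response element core was found in 6 of 34 constitutive genes with a window (17.6%) and in 14% of all 27025 genes with one, and the CCAAT box in 35.3% and 41.1%. The core of the interferon-stimulated response element was found in 1 of the 5 immunoproteasome genes, in 17.6% of the constitutive genes and in 9.76% of all genes. These matches describe letters in the windows and no bound site.

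Before the members are compared, the cell type markers of the arrays are given, since immune cells carry immunoproteasome genes. Against the basal diet arrays, 10 of 15 macrophage markers were higher in the Ath+HF 38w group and 10 in the Ath+HF+BCAA 38w group, 11 were higher in the arrays carrying the label Ath+HF+BCAA 68w, and 7 were lower and 1 higher in the arrays carrying the label Ath+HF 68w. Of all genes, 3.05%, 3.67% and 22.9% were called higher in the first 3 of these comparisons, at an adjusted p under 0.05 from limma. In Ath+HF 68w 19.1% of all genes were called lower and 19% higher. The median position of the macrophage markers, as log2 signal minus the basal diet mean, ran from 1.02 to 1.27 over the arrays of Ath+HF 38w, from 0.85 to 1.43 in Ath+HF+BCAA 38w, from -0.50 to -0.26 in Ath+HF 68w and from 1.34 to 1.91 in Ath+HF+BCAA 68w. The marker rise of the Ath+HF diet at 38w was therefore absent from the arrays that carry the label Ath+HF 68w. Directions between the 68w groups rest on these labels, and whether labels were exchanged was not tested. Between the 68w groups, with BCAA against without, 13 of 15 macrophage markers were higher (median 2.02) and 3 of 7 hepatocyte markers were lower (median -0.10). Of all genes, 19.8% were called higher and 16.4% lower there. In the same comparison 6 of 10 T and NK cell markers (median 0.57), 5 of 6 stellate and endothelial markers (median 0.59), 3 of 5 dendritic cell markers (median 0.42) and 1 of 3 B cell markers (median 0.32) were higher and none of these was lower. The mean over arrays of the median position of the macrophage markers was 1.13 in Ath+HF 38w and 1.23 in Ath+HF+BCAA 38w. At 68w it was -0.36 in Ath+HF and 1.61 in Ath+HF+BCAA. For the 5 immunoproteasome genes these means were 0.26, 0.25, -0.40 and 0.18 in the same order. No immunoproteasome gene was called at 38w. Psme1 was higher in Ath+HF 68w than under basal diet, where 7 macrophage markers were lower and 1 higher. There 3 of 5 dendritic cell markers were higher and none lower (median 0.38). In that comparison 2 of 6 stellate and endothelial markers and 1 of 10 T and NK cell markers were lower, and 2 of 7 hepatocyte markers were higher. The median position of the hepatocyte markers lay between -0.09 and 0.29 in all arrays. The part of these cell types in the results that follow was not tested.

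**Figure D1:**
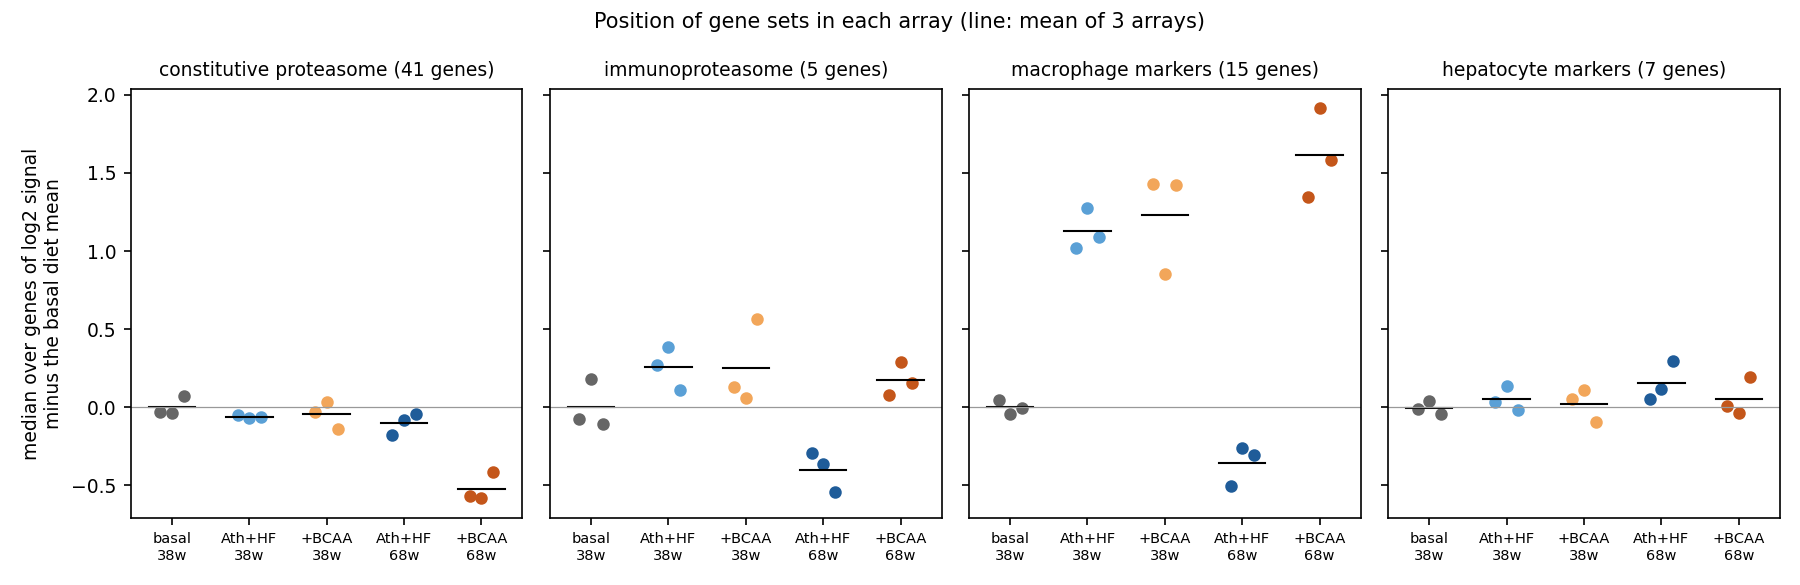
Median position of the 41 constitutive genes, the 5 immunoproteasome genes, 15 macrophage markers and 7 hepatocyte markers in each array, as log2 signal minus the basal diet mean (points: arrays, line: mean of 3 arrays, groups along the horizontal axis). The immunoproteasome arrays labelled Ath+HF 68w lie between -0.54 and -0.29 and the constitutive arrays labelled Ath+HF+BCAA 68w between -0.58 and -0.42, while the other constitutive arrays lie between -0.18 and 0.07.

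At 38w no proteasome gene passed the test. In the comparison of Ath+HF 38w with basal diet, 0 of 50 members were called at an adjusted p under 0.05 from limma, where 3.05% of all genes were called higher and 1.18% lower. At an unadjusted limma p under 0.05, 1 member was higher and 5 lower, beside 17.6% of all genes in both directions together. An analysis of variance with Bonferroni adjustment over pairs of groups, not over genes, called 1 lower. With equal array medians Psma2 (-0.41) and Psme3 (-0.33) were called lower. In the comparison of Ath+HF+BCAA 38w with basal diet, 0 members were called beside 3.67% of all genes higher and 1.82% lower, with 1 higher and 3 lower unadjusted. Between the 38w diet groups with and without BCAA limma called 0 members and 0% of all genes higher and 0% lower. Unadjusted, 2 members were higher, beside 7.66% of all genes in both directions together. The catalytic immunoproteasome subunits lay 0.29 to 0.35 above basal diet in Ath+HF 38w and 0.22 to 0.35 above it in Ath+HF+BCAA 38w on the log2 scale, none of them past the threshold. All members together ranged from -0.33 to 0.35 and from -0.25 to 0.35 in these comparisons.

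The immunoproteasome genes parted at 68w. In the arrays carrying the label Ath+HF 68w, Psmb8, Psmb10 and Psme2 were lower than under basal diet and Psme1 was higher, so that 3 of 5 were lower and 1 higher, where 19.1% of all genes were called lower and 19% higher. In the arrays carrying the label Ath+HF+BCAA 68w, Psme1 alone was called, higher, where 22.9% of all genes were called higher and 21.8% lower. Between the 68w groups Psmb8, Psmb10 and Psme2 were higher with BCAA, 3 of 5, beside 19.8% of all genes called higher and 16.4% lower.

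Psmb8, which replaces the chymotrypsin-like subunit Psmb5, had log2 signals of 8.62, 8.88 and 8.50 in the basal diet arrays, 8.94, 9.16 and 8.78 in Ath+HF 38w and 8.96, 8.81 and 9.27 in Ath+HF+BCAA 38w. At 68w the Psmb8 signals were 7.82, 7.37 and 7.52 in Ath+HF and 8.03, 8.48 and 8.32 in Ath+HF+BCAA. The 3 arrays labelled Ath+HF 68w were the lowest of all 15 and overlapped with no other group. Psmb8 was 2.14-fold lower in them than under basal diet (log2 difference -1.10, standard error 0.16, limma, adjusted p = 0.000158) and 1.63-fold higher with BCAA at 68w (0.70, standard error 0.16, adjusted p = 0.0029). With BCAA at 68w its arrays stayed below those of basal diet, by 0.39 in the mean, without passing the threshold (adjusted p = 0.0588). That last difference was called with the array medians set equal (-0.60, adjusted p = 0.00502, range over all settings 0.00502 to 0.516) without basal diet replicate 3 (-0.48), without Ath+HF+BCAA 38w replicate 3 (-0.39) and without Ath+HF+BCAA 68w replicate 2 (-0.49).

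Psmb10, which replaces the trypsin-like subunit Psmb7, had signals of 8.91, 9.16 and 8.88 under basal diet, 9.27, 9.44 and 9.27 in Ath+HF 38w and 9.02, 9.04 and 9.55 in Ath+HF+BCAA 38w. At 68w the Psmb10 signals were 8.63, 8.28 and 8.14 in Ath+HF and 9.11, 9.28 and 9.36 in Ath+HF+BCAA. The arrays labelled Ath+HF 68w were again the lowest and overlapped with no other group, and those with the label Ath+HF+BCAA 68w lay among the 38w arrays. With BCAA at 68w Psmb10 was 1.86-fold higher (log2 difference 0.90, standard error 0.15, limma, adjusted p = 0.000239), and against basal diet it was 1.55-fold lower in Ath+HF 68w (-0.63, standard error 0.15, adjusted p = 0.00454). In the values as deposited it was the immunoproteasome gene called for a BCAA difference that itself differed between the ages, by 1.02 (standard error 0.21, limma, adjusted p = 0.00298, range over the settings 0.000371 to 0.00973). The 3 catalytic immunoproteasome genes all lay in that direction, from 0.42 to 1.02. With quantile normalization 2 of the 5 immunoproteasome genes were called higher.

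Psmb9, which replaces the caspase-like subunit Psmb6, had signals of 8.69, 9.30 and 8.82 under basal diet, 9.41, 9.32 and 9.12 in Ath+HF 38w and 9.27, 9.02 and 9.55 in Ath+HF+BCAA 38w. At 68w the Psmb9 signals were 8.64, 8.72 and 8.89 in Ath+HF and 9.02, 9.43 and 9.06 in Ath+HF+BCAA. Its arrays at 68w did not overlap between the groups with and without BCAA. The difference of 0.42 (standard error 0.17) missed the threshold in limma (adjusted p = 0.0639, range over the settings 0.00933 to 0.502). It passed in several settings, among them without basal diet replicate 2 (0.42, adjusted p = 0.035) and without Ath+HF+BCAA 38w replicate 3 (0.42, adjusted p = 0.0482). Against basal diet, where replicate 2 lay near the diet groups, Psmb9 passed at neither 68w label.

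The activator genes went apart. Psme1 had signals of 9.64, 9.95 and 9.86 under basal diet, 9.92, 10.05 and 9.75 in Ath+HF 38w and 9.81, 9.71 and 9.91 in Ath+HF+BCAA 38w. At 68w the Psme1 signals were 10.52, 10.37 and 10.34 in Ath+HF and 10.12, 10.11 and 10.21 in Ath+HF+BCAA. Both 68w groups lay above all 38w arrays, and Psme1 was 1.51-fold higher than under basal diet in Ath+HF 68w (log2 difference 0.59, standard error 0.11, limma, adjusted p = 0.000649) and 1.25-fold higher in Ath+HF+BCAA 68w (0.33, standard error 0.11, adjusted p = 0.0199). The call in Ath+HF+BCAA 68w was lost with the array medians set equal (0.12, adjusted p = 0.366), without basal diet replicate 1 (0.24, adjusted p = 0.0969) and without Ath+HF+BCAA 68w replicate 3 (0.30, adjusted p = 0.0652), with a range over the settings from 0.00203 to 0.366. Between the 68w groups Psme1 differed by -0.27 with BCAA (adjusted p = 0.061), without overlap, and was called lower with equal array medians (-0.41, adjusted p = 0.00517).

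Psme2 had signals of 10.52, 10.60 and 10.47 under basal diet, 10.67, 10.63 and 10.23 in Ath+HF 38w and 10.66, 10.42 and 10.51 in Ath+HF+BCAA 38w. At 68w the Psme2 signals were 10.31, 10.16 and 9.99 in Ath+HF and 10.53, 10.68 and 10.69 in Ath+HF+BCAA. At 68w the groups with and without BCAA did not overlap, and Psme2 was 1.39-fold higher with BCAA (log2 difference 0.48, standard error 0.12, limma, adjusted p = 0.00627). Against basal diet it was 1.30-fold lower in Ath+HF 68w (-0.38, standard error 0.12, adjusted p = 0.0246), a call that was lost with quantile normalization (-0.23, adjusted p = 0.123, range over the settings 0.00873 to 0.123). The same call was lost without basal diet replicate 1 (-0.38) or 2 (-0.34) and without Ath+HF 68w replicate 2 (-0.38) or 3 (-0.29). A further transcript cluster carries Psme2 together with Psme2b, a near-identical copy, and was left out, so that signal of the copy may enter the values of Psme2.

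**Figure D2:**
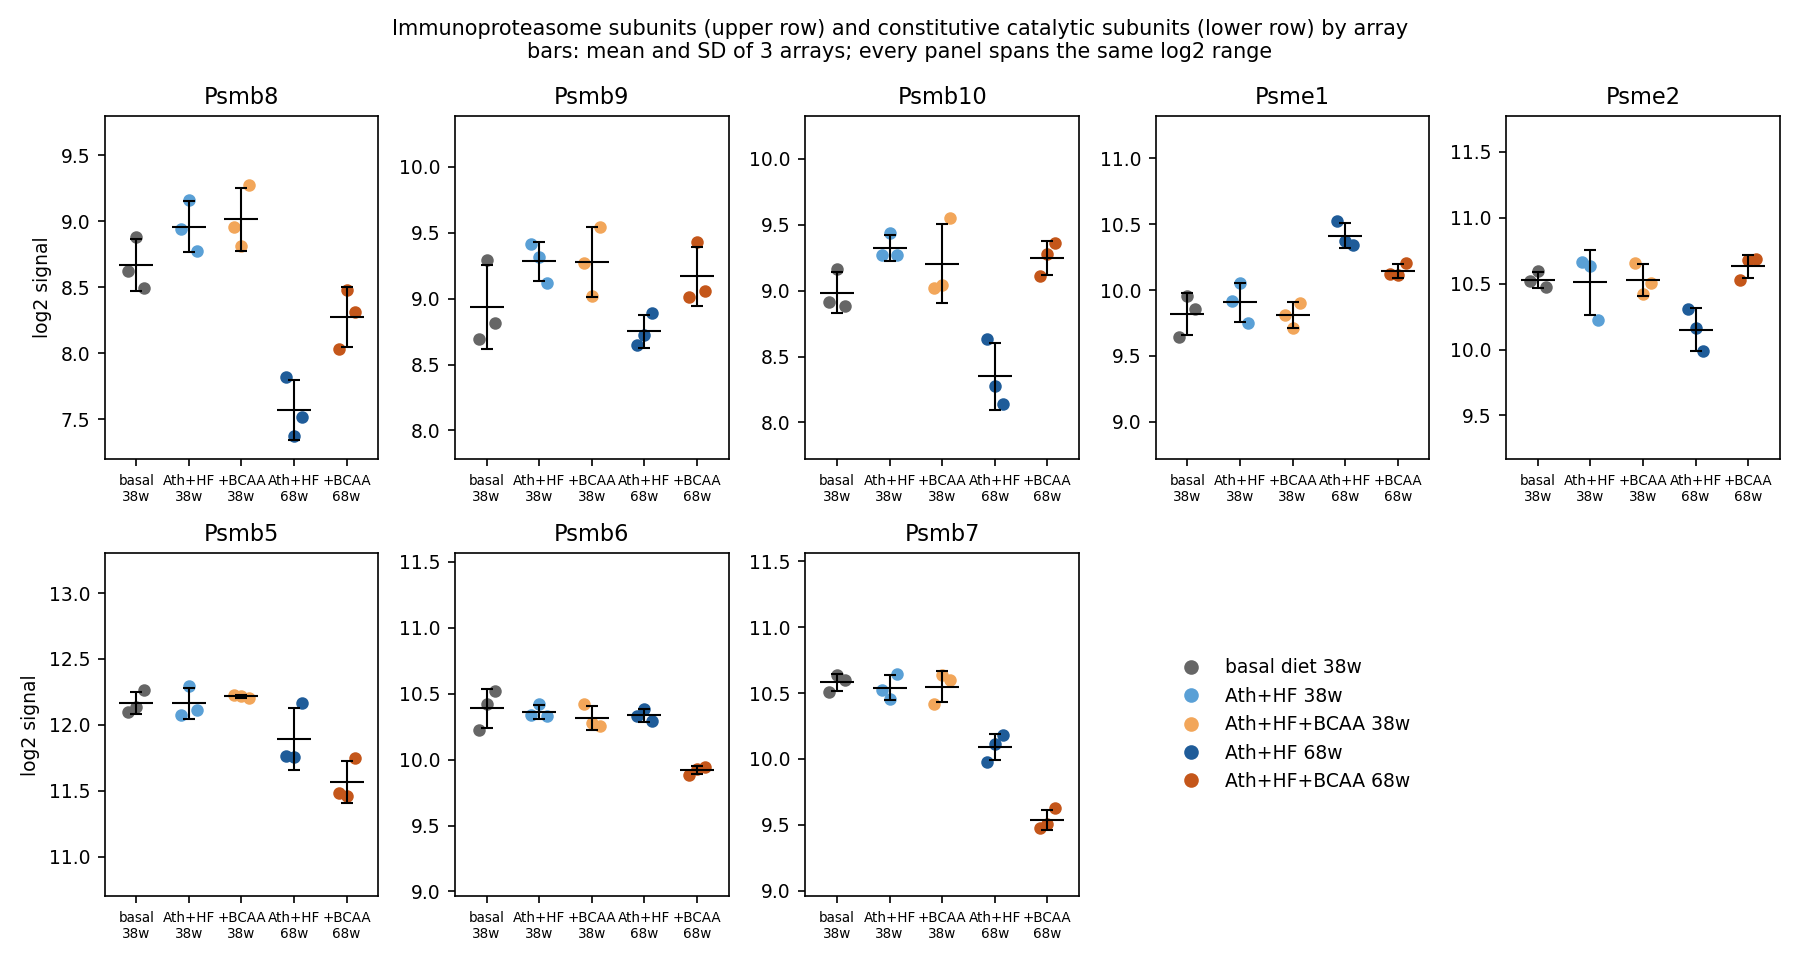
Log2 signal of the 5 immunoproteasome genes (upper row) and the 3 constitutive catalytic subunits (lower row) in each of 15 arrays (points: arrays, bars: mean and SD of 3 arrays, groups along the horizontal axis, all panels with the same span). Psmb8 reaches its lowest values, 7.37 to 7.82, in the arrays carrying the label Ath+HF 68w, and Psmb7 its lowest, 9.48 to 9.63, in those with the label Ath+HF+BCAA 68w.

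The constitutive catalytic subunits ran the other way between the 68w groups, and all 3 were lower in the arrays carrying the label Ath+HF+BCAA 68w than in those with the label Ath+HF 68w and than under basal diet. Psmb7, the trypsin-like subunit, had signals of 10.51, 10.63 and 10.60 under basal diet, 10.52, 10.45 and 10.64 in Ath+HF 38w and 10.41, 10.63 and 10.60 in Ath+HF+BCAA 38w. At 68w the Psmb7 signals were 9.98, 10.11 and 10.18 in Ath+HF and 9.48, 9.50 and 9.63 in Ath+HF+BCAA. Both 68w groups lay below all 38w arrays and did not overlap with each other. Psmb7 was 2.06-fold lower in Ath+HF+BCAA 68w than under basal diet (log2 difference -1.05, standard error 0.10, limma, adjusted p = 4.34e-07), 1.41-fold lower in Ath+HF 68w (-0.49, standard error 0.10, adjusted p = 0.00113) and 1.47-fold lower with BCAA at 68w (-0.55, standard error 0.10, adjusted p = 0.000277).

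Psmb6, the caspase-like subunit, had signals of 10.23, 10.43 and 10.52 under basal diet, 10.34, 10.42 and 10.33 in Ath+HF 38w and 10.42, 10.28 and 10.25 in Ath+HF+BCAA 38w. At 68w the Psmb6 signals were 10.33, 10.39 and 10.29 in Ath+HF and 9.88, 9.93 and 9.94 in Ath+HF+BCAA. The last group lay below all other arrays, and the other 4 groups overlapped. Psmb6 was 1.39-fold lower in it than under basal diet (log2 difference -0.47, standard error 0.09, limma, adjusted p = 0.000608) and 1.33-fold lower than in Ath+HF 68w (-0.42, standard error 0.09, adjusted p = 0.0022).

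Psmb5, the chymotrypsin-like subunit, had signals of 12.10, 12.13 and 12.26 under basal diet, 12.08, 12.30 and 12.12 in Ath+HF 38w and 12.23, 12.22 and 12.20 in Ath+HF+BCAA 38w. At 68w the Psmb5 signals were 11.76, 11.75 and 12.17 in Ath+HF and 11.49, 11.46 and 11.75 in Ath+HF+BCAA. Replicate 3 of Ath+HF 68w lay among the 38w arrays, and the lowest array of that group equalled the highest with BCAA to the second decimal. Psmb5 was 1.51-fold lower in Ath+HF+BCAA 68w than under basal diet (log2 difference -0.60, standard error 0.12, limma, adjusted p = 0.000734). Its difference with BCAA at 68w was -0.33 (standard error 0.12, adjusted p = 0.042), and this call was lost without Ath+HF 68w replicate 3 (-0.19, adjusted p = 0.217), without Ath+HF+BCAA 68w replicate 1 (-0.29) or 2 (-0.28), without Ath+HF+BCAA 38w replicate 1 (-0.33, adjusted p = 0.05) and with quantile normalization (-0.13, adjusted p = 0.408), with a range over the settings from 0.0048 to 0.408.

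Each inducible subunit was then set against its counterpart, as the difference of their log2 signals in an array. A constant shift of a whole array does not alter this difference. Quantile normalization is no such shift, and the pairs were not run under it. Relative to the basal diet mean, Psmb10 minus Psmb7 was 0.25, -0.24 and -0.44 in the arrays carrying the label Ath+HF 68w and 1.23, 1.37 and 1.33 in those with the label Ath+HF+BCAA 68w. Psmb8 minus Psmb5 was -0.44, -0.88 and -1.15 in the former and 0.04, 0.51 and 0.06 in the latter. Psmb9 minus Psmb6 was -0.23, -0.21 and 0.06 and then 0.59, 0.96 and 0.57. In all 3 pairs the arrays of both 68w groups did not overlap, with differences with BCAA of 1.45 (standard error 0.21), 1.03 (standard error 0.26) and 0.83 (standard error 0.16) in this order. An exact permutation test, two-sided, gave p = 0.1 for each, the smallest that 3 arrays against 3 allow, so that this test of 1 group against another cannot pass 0.05. How often the arrays of all genes or of other pairs do not overlap between these groups is not given here. At an unadjusted limma p under 0.05, 46.6% of all genes differed between the 68w groups. Against basal diet Psmb8 minus Psmb5 differed by -0.83 in Ath+HF 68w and Psmb10 minus Psmb7 by 1.31 in Ath+HF+BCAA 68w, both without overlap (exact permutation, p = 0.1).

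**Figure D3:**
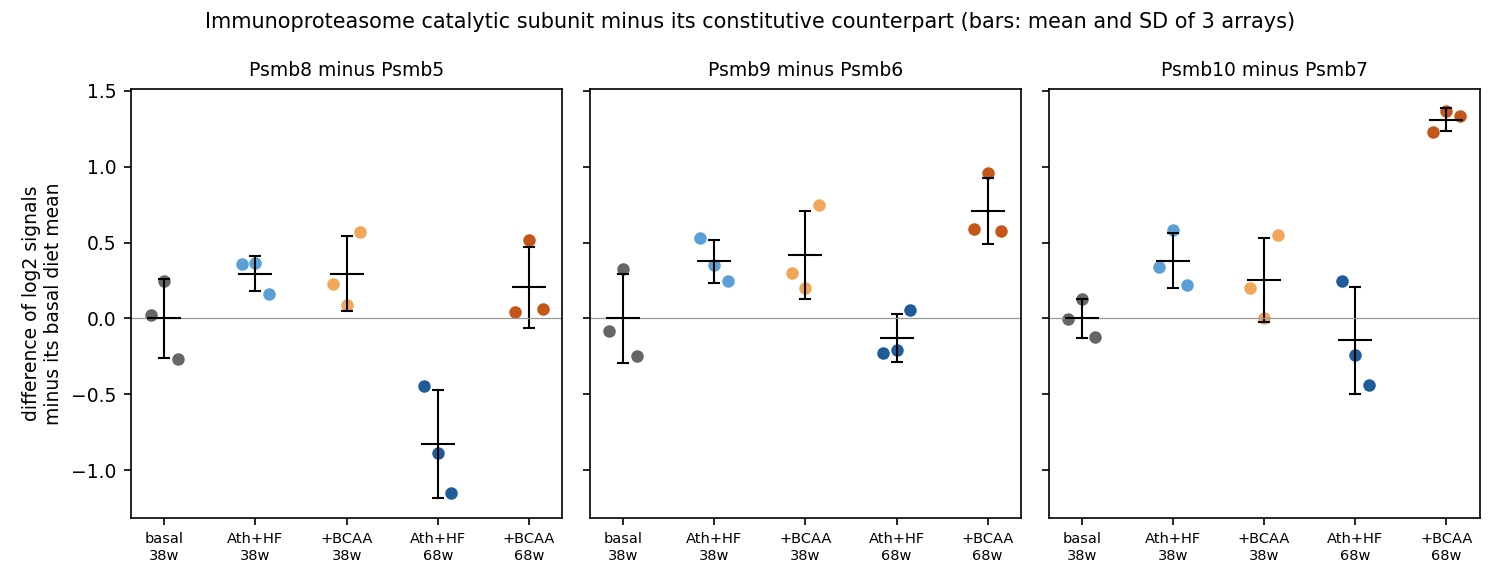
Difference of log2 signals between each immunoproteasome catalytic subunit and its constitutive counterpart, minus the basal diet mean of that difference, in each array (points: arrays, bars: mean and SD of 3 arrays). The arrays labelled Ath+HF+BCAA 68w stand at 1.23 to 1.37 for Psmb10 minus Psmb7, above all other arrays, and those with the label Ath+HF 68w at -1.15 to -0.44 for Psmb8 minus Psmb5, below all others.

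Over the 41 constitutive genes, the arrays carrying the label Ath+HF+BCAA 68w were lower than basal diet in 29 (70.7%) and higher in 2, with a median log2 difference of -0.50 beside 0.01 for all genes. In the arrays carrying the label Ath+HF 68w 15 (36.6%) were lower and 5 higher, with a median of -0.06 beside 0.05. These comparisons share the basal diet arrays. Between the 68w groups 23 (56.1%) were lower with BCAA and 2 higher, with a median of -0.31 beside -0.09 for all genes. The shares of all genes called are those given above, 21.8%, 19.1% and 16.4% lower. With the array medians set equal the median of all genes shifted to -0.20 against basal diet and to -0.23 between the 68w groups, and the constitutive medians to -0.71 and -0.46, with 35 lower and 1 higher, and 29 lower and 1 higher. For Ath+HF 68w against basal diet the split of 5 higher and 15 lower became 2 and 18 with equal medians and 8 and 13 with quantile normalization, under which the median turned to 0.07. With equal medians 4557 genes higher and 4342 lower in Ath+HF+BCAA 68w against basal diet became 2649 and 7625, those in Ath+HF 68w went from 3791 and 3812 to 2651 and 4565, and those between the 68w groups from 3947 and 3274 to 2965 and 7362. Of the calls with BCAA at 68w, that of Psma2 (-0.31) was lost without Ath+HF 68w replicate 1 (-0.28) or 2 (-0.29) and Ath+HF+BCAA 68w replicate 1 (-0.30) or 2 (-0.27), and that of Psmd13 (-0.27) without Ath+HF 68w replicate 2 (-0.25) or 3 (-0.22) and Ath+HF+BCAA 68w replicate 1 (-0.22) or 2 (-0.24).

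**Figure D4:**
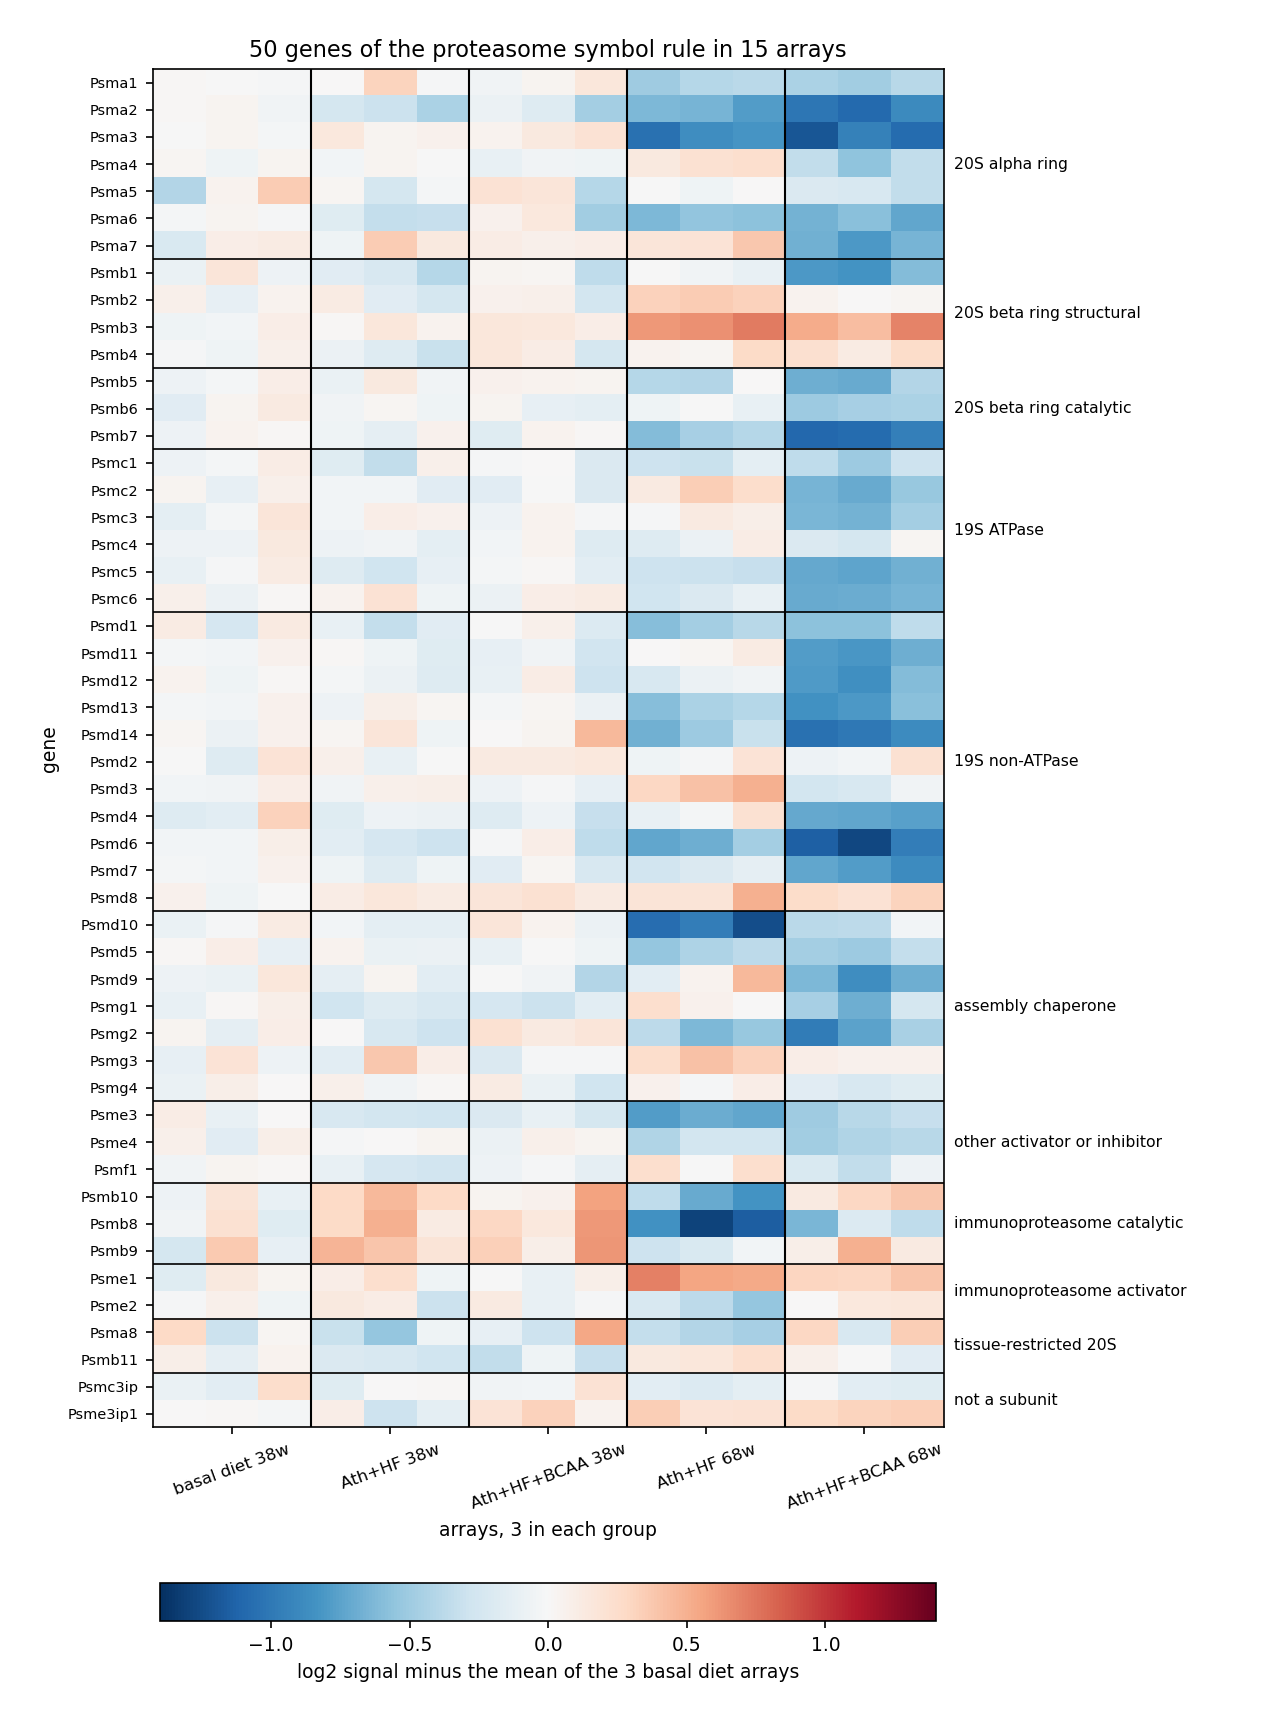
Log2 signal of the 50 members minus the basal diet mean (colour) in each of 15 arrays, with genes by class along the vertical axis and arrays by group along the horizontal axis. Blue fields, lower than basal diet, lie in both 68w groups and fill most constitutive classes in the arrays carrying the label Ath+HF+BCAA 68w, where 29 of 41 constitutive genes were called lower, beside 21.8% of all genes.

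In the alpha ring of the core, whose subunits gate entry to the barrel, 6 of 7 genes were lower than basal diet in Ath+HF+BCAA 68w (Psma1, Psma2, Psma3, Psma4, Psma6 and Psma7) and 4 in Ath+HF 68w (Psma1, Psma2, Psma3 and Psma6). Of all genes, 21.8% and 19.1% were called lower in these comparisons. The call of Psma1 with BCAA (-0.44) was lost with quantile normalization (-0.26, adjusted p = 0.0521, range over the settings 4.68e-05 to 0.0521). Psma3 had signals of 11.58, 11.63 and 11.56 under basal diet, 11.74, 11.62 and 11.65 in Ath+HF 38w and 11.64, 11.72 and 11.79 in Ath+HF+BCAA 38w. At 68w the Psma3 signals were 10.55, 10.72 and 10.76 in Ath+HF and 10.40, 10.64 and 10.51 in Ath+HF+BCAA. It was the constitutive subunit of the core that fell most at either label, 1.88-fold (log2 difference -0.91, standard error 0.09, limma, adjusted p = 1.24e-05) and 2.10-fold (-1.07, standard error 0.09, adjusted p = 2.69e-07), and its 3 transcript clusters fell from 11.59, 11.52 and 11.32 under basal diet to 10.52, 10.43 and 10.22 with BCAA at 68w. Psma7 behaved otherwise. Its signals were 9.40, 9.70 and 9.72 under basal diet, 9.54, 9.97 and 9.74 in Ath+HF 38w and 9.71, 9.68 and 9.70 in Ath+HF+BCAA 38w. At 68w the Psma7 signals were 9.78, 9.80 and 9.99 in Ath+HF and 8.94, 8.81 and 8.96 in Ath+HF+BCAA, so that the group without BCAA lay above basal diet and the group with BCAA below it, with no overlap. With BCAA at 68w Psma7 was 1.94-fold lower (-0.95, standard error 0.12, adjusted p = 1.12e-05), the largest fall among the members in that comparison, while its difference of 0.25 from basal diet in Ath+HF 68w was not called (adjusted p = 0.107) except with quantile normalization (0.40, adjusted p = 0.0244). Psma2 was at -0.68 in Ath+HF 68w and -0.997 in Ath+HF+BCAA 68w, and Psma4 at 0.20, called with quantile normalization alone of the scalings (0.31), and at -0.42. Psma5 was called in no comparison as deposited, but was called lower in Ath+HF+BCAA 68w than under basal diet with equal array medians (-0.47), without basal diet replicate 1 (-0.46) and with the mean of its clusters (-0.49). These disagreed, the brightest with means of 9.09 under basal diet and 8.84 in Ath+HF+BCAA 68w and the other with 9.03 and 8.30.

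The structural beta subunits, which do not cleave, differed among themselves. Psmb3 was higher than basal diet at both labels, with signals of 11.75, 11.78 and 11.92 under basal diet, 11.84, 11.98 and 11.86 in Ath+HF 38w and 11.97, 11.96 and 11.91 in Ath+HF+BCAA 38w. At 68w the Psmb3 signals were 12.42, 12.45 and 12.54 in Ath+HF and 12.34, 12.25 and 12.51 in Ath+HF+BCAA. No 68w array overlapped with basal diet, and the rises were 1.57-fold (log2 difference 0.65, standard error 0.09, limma, adjusted p = 0.00011) and 1.46-fold (0.55, standard error 0.09, adjusted p = 0.000158). Psmb2 was higher than basal diet in Ath+HF 68w, by 0.33 (adjusted p = 0.0284), a call lost with equal array medians (0.26, adjusted p = 0.0711) and without any of the 3 Ath+HF 68w arrays (0.32 to 0.34) or basal diet replicate 2 (0.28). With BCAA at 68w Psmb2 was lower by 0.30 (adjusted p = 0.0422), a call lost with quantile normalization (-0.19, adjusted p = 0.177, range over the settings 0.00393 to 0.177) and without any of the 6 arrays of 68w (-0.31 to -0.29). Psmb1 was at -0.05 in Ath+HF 68w, not called, and at -0.75 in Ath+HF+BCAA 68w, and Psmb4 was called at neither label, with 0.11 and 0.20, except in Ath+HF+BCAA 68w with quantile normalization (0.41).

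In the ring of cap ATPases, which unfolds the substrate, Psmc1, Psmc2, Psmc3, Psmc5 and Psmc6 were lower than basal diet in Ath+HF+BCAA 68w, 5 of 6, by 0.39 to 0.71 on the log2 scale, and Psmc5 alone in Ath+HF 68w (-0.30). The shares of all genes called lower were 21.8% in the former and 19.1% in the latter, so that 1 of 6 in Ath+HF 68w is near that share. The call of Psmc1 was lost without Ath+HF+BCAA 68w replicate 2 (-0.33) and with quantile normalization (-0.26, adjusted p = 0.0823, range over the settings 0.000585 to 0.0823). That of Psmc5 in Ath+HF 68w was lost without basal diet replicate 3 (-0.25) and with quantile normalization (-0.13, adjusted p = 0.269, range 0.00504 to 0.269). Psmc2 had signals of 9.31, 9.16 and 9.35 under basal diet, 9.24, 9.24 and 9.11 in Ath+HF 38w and 9.11, 9.27 and 9.07 in Ath+HF+BCAA 38w. At 68w the Psmc2 signals were 9.40, 9.62 and 9.52 in Ath+HF and 8.62, 8.57 and 8.75 in Ath+HF+BCAA. The basal diet and both 68w groups did not overlap, and with BCAA at 68w Psmc2 was 1.82-fold lower (log2 difference -0.87, standard error 0.10, limma, adjusted p = 3.84e-06). Psmc4 was called in no comparison, with group means within 0.14 of each other, but with equal array medians it was called lower in Ath+HF+BCAA 68w than under basal diet (-0.35, adjusted p = 0.0134, range over the settings 0.0134 to 1.0).

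Of the 11 non-ATPase subunits of the cap, 8 were lower than basal diet in Ath+HF+BCAA 68w, namely Psmd1, Psmd4, Psmd6, Psmd7, Psmd11, Psmd12, Psmd13 and Psmd14, and 4 in Ath+HF 68w, namely Psmd1, Psmd6, Psmd13 and Psmd14. Beside these counts, 21.8% and 19.1% of all genes were called lower. Psmd6, a scaffold subunit of the lid, had signals of 10.47, 10.47 and 10.59 under basal diet, 10.37, 10.27 and 10.22 in Ath+HF 38w and 10.49, 10.61 and 10.15 in Ath+HF+BCAA 38w. At 68w the Psmd6 signals were 9.78, 9.83 and 10.03 in Ath+HF and 9.37, 9.23 and 9.54 in Ath+HF+BCAA. Basal diet and both 68w groups did not overlap, and Psmd6 was 2.18-fold lower than basal diet with BCAA (log2 difference -1.13, standard error 0.12, limma, adjusted p = 2.13e-06) and 1.55-fold lower without (-0.63, standard error 0.12, adjusted p = 0.00105). Psmd14, the deubiquitinase that removes ubiquitin chains at the entrance, had signals of 10.85, 10.74 and 10.88 under basal diet, 10.85, 10.99 and 10.77 in Ath+HF 38w and 10.83, 10.86 and 11.28 in Ath+HF+BCAA 38w. At 68w the Psmd14 signals were 10.15, 10.31 and 10.52 in Ath+HF and 9.78, 9.82 and 9.94 in Ath+HF+BCAA. The same groups did not overlap here either, and Psmd14 was 1.97-fold lower than basal diet with BCAA (-0.98, standard error 0.13, adjusted p = 1.36e-05). The ubiquitin receptor Psmd4 was at -0.74 in Ath+HF+BCAA 68w and at 0.03 in Ath+HF 68w, where it was not called, and Psmd11 (-0.76 and 0.05), Psmd12 (-0.75 and -0.12) and Psmd7 (-0.80 and -0.20) likewise passed in the former and missed in the latter, Psmd7 except with equal array medians (-0.27). Psmd3 was higher than basal diet in Ath+HF 68w (0.40, adjusted p = 0.00337) and lower with BCAA at 68w (-0.58, adjusted p = 0.000134). Psmd8, a lid subunit, was higher at both labels, by 0.29 and 0.26. Its call in Ath+HF 68w was lost without basal diet replicate 2 (0.26) or 3 (0.28) and without Ath+HF 68w replicate 3 (0.18). Its call in Ath+HF+BCAA 68w was lost with equal array medians (0.05, adjusted p = 0.703), without any of the 3 arrays of that group (0.23 to 0.28) and without basal diet replicate 2 (0.23) or 3 (0.25). Psmd2, a base subunit that docks ubiquitin shuttles, was called in no comparison.

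The assembly chaperones split as well. Psmd10, a chaperone of the cap base also known as gankyrin, had signals of 9.45, 9.53 and 9.66 under basal diet, 9.51, 9.41 and 9.41 in Ath+HF 38w and 9.72, 9.60 and 9.47 in Ath+HF+BCAA 38w. At 68w the Psmd10 signals were 8.48, 8.58 and 8.31 in Ath+HF and 9.17, 9.18 and 9.51 in Ath+HF+BCAA. It was 2.13-fold lower in the arrays carrying the label Ath+HF 68w, below all others (log2 difference -1.09, standard error 0.11, limma, adjusted p = 1.39e-05), and 1.78-fold higher with BCAA at 68w (0.83, standard error 0.11, adjusted p = 3.03e-05), so that its direction between the 68w groups was that of Psmb8, Psmb10 and Psme2. Psmd9, another chaperone of the cap base, had signals of 8.44, 8.42 and 8.68 under basal diet, 8.39, 8.55 and 8.37 in Ath+HF 38w and 8.51, 8.46 and 8.11 in Ath+HF+BCAA 38w. At 68w the Psmd9 signals were 8.37, 8.57 and 8.97 in Ath+HF and 7.88, 7.64 and 7.83 in Ath+HF+BCAA. The last group lay below all others, and Psmd9 was 1.80-fold lower with BCAA at 68w (-0.85, standard error 0.15, adjusted p = 0.000299). Psmd5 was lower than basal diet at both labels, by 0.45 and 0.44, and so was the core chaperone Psmg2, by 0.51 and 0.73. Psmg1, its partner, was lower in Ath+HF+BCAA 68w (-0.47), Psmg3 was higher in Ath+HF 68w (0.33, adjusted p = 0.0497, range over the settings 0.0237 to 0.262), a call lost without any of the arrays of Ath+HF 68w (0.28 to 0.37) or of Ath+HF+BCAA at both ages (0.33), without basal diet replicate 1 (0.27) or 3 (0.29) and without Ath+HF 38w replicate 3 (0.33), and Psmg4 was not called. With BCAA at 68w Psmg4 differed by -0.23, and it was called lower there with quantile normalization (-0.45, adjusted p = 0.00158, range over the settings 0.00158 to 0.234), equal array medians (-0.37, adjusted p = 0.00721), array weights (-0.20, adjusted p = 0.0356) and the 68w groups compared alone (-0.23, adjusted p = 0.044). Against basal diet in Ath+HF+BCAA 68w it was called lower with equal array medians (-0.39) and quantile normalization (-0.29).

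Of the other regulators, the nuclear activator Psme3 was lower than basal diet at both labels and higher with BCAA at 68w. Its signals were 10.89, 10.68 and 10.80 under basal diet, 10.57, 10.53 and 10.52 in Ath+HF 38w and 10.59, 10.68 and 10.54 in Ath+HF+BCAA 38w. At 68w the Psme3 signals were 10.004, 10.10 and 10.06 in Ath+HF and 10.29, 10.40 and 10.47 in Ath+HF+BCAA, with no overlap among basal diet and the 68w groups, and the difference with BCAA was 0.34 (standard error 0.09, limma, adjusted p = 0.00714), a call lost with equal array medians (0.19, adjusted p = 0.077). The activator Psme4 was lower at both labels, by 0.31 and 0.43, the former lost with quantile normalization (-0.20, adjusted p = 0.117, range over the settings 0.00577 to 0.117), without basal diet replicate 1 (-0.27) or 3 (-0.27) and without Ath+HF 68w replicate 1 (-0.25). The inhibitor Psmf1 was lower with BCAA at 68w, by 0.37, a call lost without Ath+HF+BCAA 68w replicate 2 (-0.30). Psma8 and Psmb11 had means over all arrays of 5.92 and 6.34, below the level of 6.58 under which the dimmest genes of the arrays lie, and the other 48 members lay above it. Psma8 was not called, but its difference with BCAA at 68w (0.54, adjusted p = 0.0565, range over the settings 0.0106 to 0.515) was called with quantile normalization (0.62, adjusted p = 0.0336), with array weights (0.53, adjusted p = 0.0106), with the 68w groups compared alone (0.54, adjusted p = 0.0148) and without basal diet replicate 2 (0.54), Ath+HF+BCAA 38w replicate 2 (0.54) or 3 (0.54) or Ath+HF+BCAA 68w replicate 2 (0.72). Psmb11 was called in Ath+HF 68w against Ath+HF 38w (0.41, adjusted p = 0.00497) among signals of 6.13 to 6.64. Of the genes that are no subunits, Psmc3ip, a recombination factor, was not called, except lower with equal array medians in Ath+HF+BCAA 68w against basal diet (-0.32) and Ath+HF+BCAA 38w (-0.30), and with quantile normalization in Ath+HF 68w against basal diet (-0.34). Psme3ip1 was higher than basal diet in Ath+HF+BCAA 68w (0.31, adjusted p = 0.0268), a call lost with equal array medians (0.10, adjusted p = 0.476), without basal diet replicate 1 (0.31) or 3 (0.30) and without Ath+HF+BCAA 68w replicate 2 (0.30) or 3 (0.29).

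**Figure D5:**
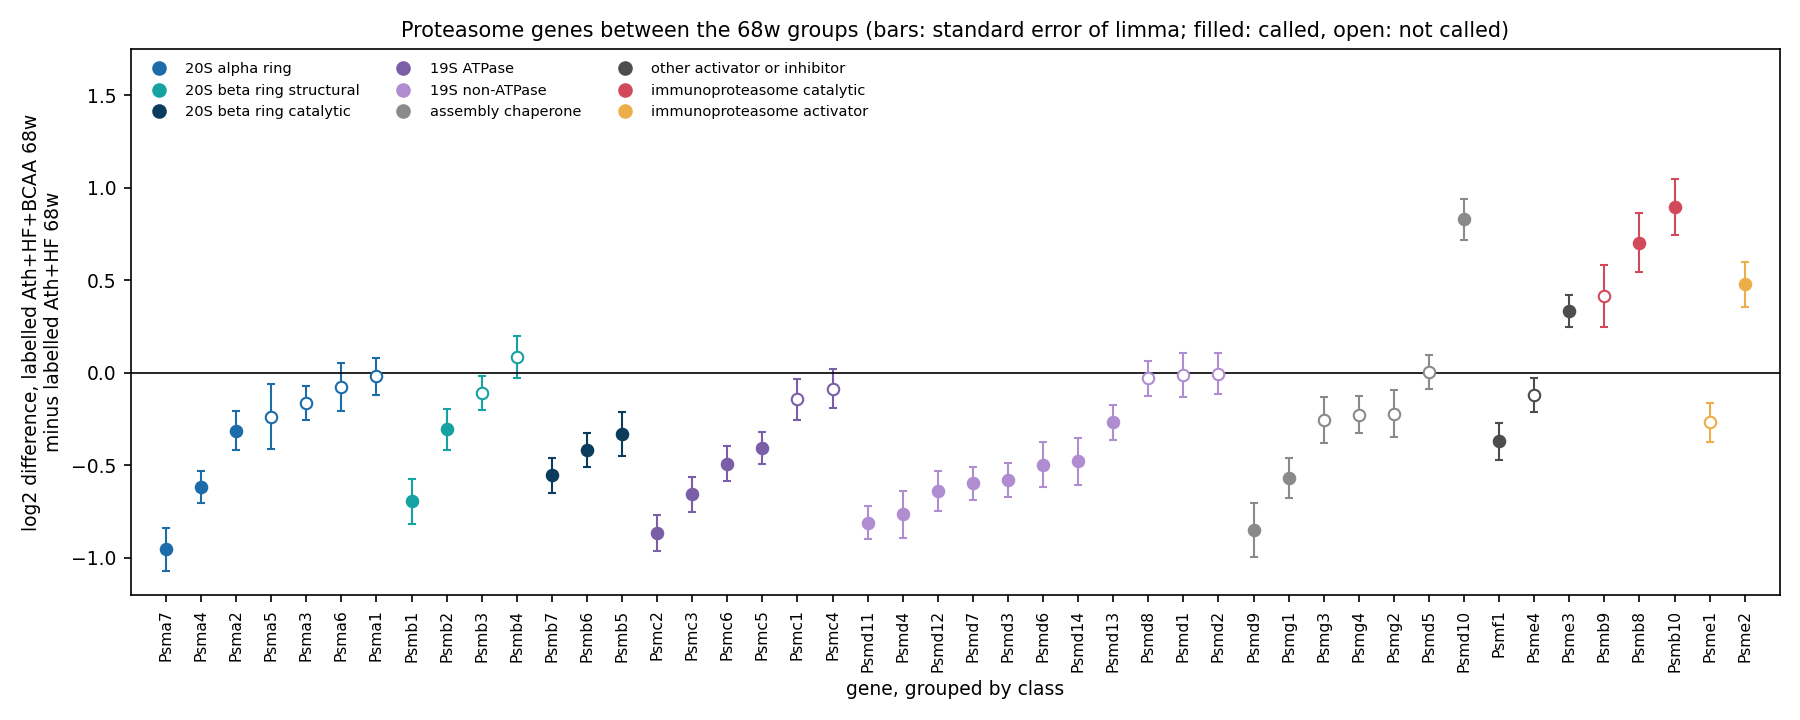
Log2 difference between the arrays carrying the label Ath+HF+BCAA 68w and those with the label Ath+HF 68w for 46 members by class (vertical axis: log2 difference, bars: standard error from limma, filled points called, open points not called). Psma7 at -0.95 and Psmc2 at -0.87 lie lowest, and Psmb10 at 0.90, Psmd10 at 0.83 and Psmb8 at 0.70 highest.

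Against the 38w arrays of the same diet, the constitutive genes again fell mostly in the group with BCAA. In Ath+HF+BCAA 68w against Ath+HF+BCAA 38w, 28 of 41 were lower and 1 higher, Psmb3, with a median of -0.49 beside 0.03 for all genes, of which 18.3% were called lower and 20.5% higher. In Ath+HF 68w against Ath+HF 38w, 13 were lower and 7 higher, with a median of -0.02 beside 0.05, where 20% of all genes were called lower and 17.6% higher, and with quantile normalization 7 were lower and 9 higher. With equal array medians the median of all genes was -0.12 in the former, where 4081 genes higher and 3654 lower became 2346 and 5735. Psma3 fell most in both, by 1.20 (standard error 0.09, limma, adjusted p = 3.17e-07) and by 0.99 (standard error 0.09, adjusted p = 3.58e-06). Psmd14 (-1.14) and Psmd6 (-1.04) followed with BCAA, and Psmd10 (-0.99) and Psmd14 (-0.54) without. Psmb3 rose by 0.42 and 0.58, and Psmb2 by 0.42 without BCAA. Of the immunoproteasome genes, Psmb8 was 2.62-fold lower in Ath+HF 68w than in Ath+HF 38w (-1.39, standard error 0.16, adjusted p = 1.98e-05), and Psmb10 (-0.97), Psmb9 (-0.53) and Psme2 (-0.36) were lower and Psme1 (0.51) higher. The calls of Psmb9 (adjusted p = 0.0218, range over the settings 0.00721 to 0.175) and Psme2 (adjusted p = 0.0319, range 0.00489 to 0.152) were lost with quantile normalization (-0.34 and -0.22), without Ath+HF 38w replicate 1 (-0.47 and -0.28) or 2 (-0.51 and -0.30) and without Ath+HF 68w replicate 2 (-0.52 and -0.36), that of Psmb9 also without Ath+HF 68w replicate 1 (-0.48) and that of Psme2 without replicate 3 (-0.27). In the group with BCAA, Psmb8 was lower (-0.74, standard error 0.16, adjusted p = 0.00196) and Psme1 higher (0.34, adjusted p = 0.0199, range over the settings 0.00249 to 0.173), the latter lost with equal array medians (0.18) and without Ath+HF+BCAA 38w replicate 2 (0.29) or Ath+HF+BCAA 68w replicate 3 (0.31).

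For many constitutive genes the difference with BCAA was lower at 68w than at 38w. The test of the difference between the ages called 19 of 41 constitutive genes lower and 1 higher, Psmd10 (0.68), with a median of -0.38 beside -0.05 for all genes, of which 7.67% were called lower and 12.9% higher. With equal array medians the median of all genes was -0.21 and that of the constitutive genes -0.55, with 25 lower and 1 higher. Over all genes 2572 higher and 1530 lower became 1820 and 3608. Psma7 (-0.90, standard error 0.17, limma, adjusted p = 0.00108), Psmb1 (-0.86) and Psmc2 (-0.82, standard error 0.14, adjusted p = 0.000445) showed the largest negative values.

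Genes that work with the proteasome were described outside the symbol rule. Of 12 partner genes measured, 9 were lower and 1 higher than basal diet in Ath+HF+BCAA 68w (median -0.59), and 7 were lower and 1 higher in Ath+HF 68w (median -0.29), where of all genes 21.8% were lower and 22.9% higher, and 19.1% and 19%. Uchl5, a deubiquitinase on the cap, fell by 1.08 and 1.06 on the log2 scale, Txnl1, a thioredoxin-like protein bound to the cap, by 0.96 with BCAA, and Usp14, another cap deubiquitinase, by 0.56 without. Pomp, the maturation factor of the core, was higher in Ath+HF 68w (0.27), and Ubqln2, a ubiquitin shuttle, in Ath+HF+BCAA 68w (0.51). Between the 68w groups, where 16.4% of all genes were lower and 19.8% higher, 3 of the 12 were lower and none higher, Txnl1 (-0.70) and Ubqln1 (-0.72) among them. Of 6 genes for proteasome transcription factors and their processing, Nfya (0.51) and Nfe2l2 (0.53) were higher and Nfe2l1 (-0.59) and its activating glycanase Ngly1 (-0.28) lower with BCAA at 68w, a comparison with the same shares of all genes. A list of 9 genes covered the supply of ubiquitin and the segregase that feeds the proteasome, and 4 of them were measured under a unique symbol. Of these 4, 3 were lower and none higher in the same comparison, Nploc4 (-0.35) and Vcp (-0.30) among them.

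Among 9 genes of class I antigen processing, 3 were higher with BCAA at 68w and none lower, beside 19.8% and 16.4% of all genes. Tapbp (0.75), the editing factor, and Tap2 (0.58), a subunit of the peptide transporter, were among them. Of 11 genes of the interferon gamma response, 10 were higher and none lower in the same comparison (median 0.97), such as the receptor chain Ifngr1 (1.57, standard error 0.10, limma, adjusted p = 1.07e-08) and the factor Irf8 (1.83, standard error 0.14, adjusted p = 9.48e-08). In Ath+HF 68w against Ath+HF 38w, 7 of these 11 were lower and none higher, and 4 class I genes were lower and 1 higher, beside 20% of all genes lower and 17.6% higher. Nlrc5, the transactivator of class I genes, was higher than basal diet at both 68w labels (1.06 and 1.17), in Ath+HF 68w beside lower Psmb8, Psmb10 and Psme2. At 38w, where no immunoproteasome gene was called, 4 of the 11 interferon gamma genes were higher in Ath+HF and 5 in Ath+HF+BCAA against basal diet, beside 3.05% and 3.67% of all genes.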

How the data were processed

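Total RNA of mouse liver was measured on 15 gene expression arrays (GeneChip Mouse Gene 1.0 ST). The authors deposited log2 signals that had been background-corrected, quantile normalized and summarized with RMA in Affymetrix Expression Console (its version: not given in the sources used here). Array medians lay between 6.91 and 7.16, no arrays were identical (highest correlation 0.993), and it is the number of arrays that sets the precision.

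Of 35556 transcript clusters, 21789 carried 1 symbol in the platform annotation, 1621 several and 12146 were unnamed here. The brightest cluster stood for a gene, which concerned 5 members with several clusters. limma (version 3.58.1, R version 4.3.3) fitted 1 mean per group over all 15 arrays (10 residual degrees of freedom), p-values were adjusted by the Benjamini-Hochberg method over 19938 genes, and genes under 0.05 were called. The fit was tested on simulated data. Pairs of subunits were compared by an exact permutation test in scipy (version 1.17.1).

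Named were the 5 immunoproteasome and 3 catalytic subunits, the 3 largest non-overlapping calls in each direction of a comparison, members never called, symbols that are no housekeeping subunit, and of related lists the 2 called genes with the smallest p in each direction. Deviations from the group mean correlated between -0.16 and 0.18 in same-numbered arrays of different groups (30 pairs). In arrays with different numbers the range was -0.19 to 0.20 (60 pairs). The main fit therefore used no pairing, but with 3 arrays a group this cannot tell whether the numbers mark a shared origin. Members and lists were chosen with earlier results of these data known. Alternatives were other scalings, the mean of clusters, a filter on dim genes, fits of groups alone, a variance trend, array weights, a replicate block, the study's Bonferroni-adjusted analysis of variance and leaving out each array, and, added after seeing the data, the 38w arrays alone. Promoter windows came from RefSeq.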

Additional observations from a re-analysis of the deposited data

Results flagged for a closer look

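For 21 of the 50 members the difference between the Ath+HF+BCAA and Ath+HF groups was not the same at 68w as at 38w. They were called by the test of that difference in limma at an adjusted p under 0.05. In 19 of them the log2 difference with BCAA was lower at 68w, where 7.67% of all genes were called lower and 12.9% higher. In the core these were Psma4 (-0.54), Psma7 (-0.90), Psmb1 (-0.86) and Psmb7 (-0.56). In the ATPase ring they were Psmc2 (-0.82), Psmc3 (-0.61), Psmc5 (-0.54) and Psmc6 (-0.47). In the rest of the cap they were Psmd3 (-0.48), Psmd4 (-0.68), Psmd6 (-0.63), Psmd7 (-0.58), Psmd11 (-0.74), Psmd12 (-0.64) and Psmd14 (-0.60). Among chaperones and inhibitors they were Psmd9 (-0.78), Psmg1 (-0.57), Psmg2 (-0.56) and Psmf1 (-0.50). In 2 members the difference was higher at 68w, Psmb10 (1.02) and Psmd10 (0.68), a smaller share than the 12.9% of all genes. Over the same arrays 13 of 15 macrophage markers had a higher difference at 68w, with a median of 2.09, and the part of this in the members' values was not tested. Without Ath+HF+BCAA 68w replicate 2 the calls of Psmc6 (-0.46), Psmd6 (-0.55), Psmd14 (-0.58), Psmf1 (-0.43), Psmg1 (-0.46) and Psmg2 (-0.55) were lost, and those of Psmc6, Psmd14 and Psmg2 also without each of several other arrays, Ath+HF 38w replicate 3 and Ath+HF 68w replicate 3 among them.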

How the results depend on the processing

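No called difference of a member changed its direction under any alternative run. Counts over all 50 members stayed within 1.5 times under most alternatives, and those that did not are given here, each as called higher or lower. With array medians set equal, lower calls in Ath+HF 38w against basal diet went from 0 to 2, higher calls in Ath+HF 68w against basal diet from 6 to 3, in Ath+HF+BCAA 68w against basal diet from 4 to 1 and in Ath+HF+BCAA 68w against Ath+HF+BCAA 38w from 2 to 1. Quantile normalization gave 10 higher calls in Ath+HF 68w against basal diet and 9 lower calls, in place of 17, in Ath+HF 68w against Ath+HF 38w. The analysis of variance was adjusted by Bonferroni over pairs of groups and not over genes. It gave 1 lower call in Ath+HF 38w against basal diet. Higher calls under it were 1 each in Ath+HF+BCAA 68w against basal diet and against Ath+HF+BCAA 38w. For the BCAA difference between the ages, higher calls went from 2 to 4 without dim genes and with a variance trend and robust fit.

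Leaving out each array in turn gave 0 to 1 lower calls in Ath+HF 38w against basal diet (1 without Ath+HF+BCAA 38w replicate 3). Higher calls ranged from 3 (without Ath+HF 68w replicate 3) to 6 in Ath+HF 68w against basal diet, from 1 (without Ath+HF+BCAA 68w replicate 3) to 4 in Ath+HF+BCAA 68w against basal diet, from 1 (without Ath+HF+BCAA 68w replicate 3) to 2 against Ath+HF+BCAA 38w, and from 2 to 4 (without Ath+HF 38w replicate 3) for the BCAA difference between the ages. Lower calls ranged from 11 (without Ath+HF 38w replicate 1) to 18 in Ath+HF 68w against Ath+HF 38w. The replicate block gave 6 higher and 18 lower calls in Ath+HF 68w against basal diet. Whether the replicate numbers pair samples is not known. With the replicate block in limma Psma8 was called with BCAA at 68w (0.54, adjusted p = 0.0174). The block lost the calls of Psmb4, Psmc6 and Psmg2 in Ath+HF 68w against Ath+HF 38w. It also lost that of Psmd10 in Ath+HF+BCAA 68w against Ath+HF+BCAA 38w. The cause of these shifts was not tested. Signals of dim genes lie near background, so that differences of Psma8 and Psmb11 are not well measured.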
